A study of Mus musculus with 4 samples.

Results

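The 10 genes of the Hippo pathway described here were followed in squamous cell carcinoma stem cells of mouse skin that did or did not show transforming growth factor beta (TGF-β) signalling. They were the co-activators Yap1 and Wwtr1, the DNA-binding partners Tead1 and Tead3, the kinases Lats1 and Lats2, the scaffolds Amotl2 and Wwc1, the LIM protein Ajuba and the target gene Ankrd1. The 10 genes were taken by name from 31729 genes with a value, of which 11969 passed a filter on low values (at least 1 FPKM in at least 2 libraries). FPKM is fragments per kilobase of transcript with the library's fragments scaled to a common total, and a gene's level here is the sum over its transcripts of at least 200 exonic bases. Of the 10 genes, 9 passed that filter, and Ankrd1 did not.

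All 4 libraries came from primary skin carcinomas of C57BL/6 X FBV mice, as the strain is labelled, all carrying TetO-Hras together with the construct labelled LV-rtTA3-TGF-beta reporter. The reporter-negative group, labelled as lacking TGF-β signalling, and the reporter-positive group, labelled as having it, therefore both carried the Hras transgene, which is switched on through the rtTA3 activator, and both carried the reporter. Cells were depleted of other lineages, taken by integrin α6 and CD44, and divided by mCherry from the reporter in 2 experiments, which gave n = 2 libraries per group. Neither the age of the mice nor the number of animals behind a library is in the labels. P-values may therefore reflect technical spread alone, as they rest on the variation among these 4 libraries. What drives rtTA3 and how the transgene was induced are not stated there either.

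The Hippo pathway is a kinase relay that restrains tissue growth. The kinases Mst1 and Mst2 (genes Stk4 and Stk3) activate Lats1 and Lats2, which phosphorylate YAP (Yap1) and TAZ (Wwtr1) and keep them out of the nucleus. Unphosphorylated YAP and TAZ enter the nucleus, bind TEAD factors and switch on genes of growth and adhesion, and in skin they sustain basal epidermal cells and squamous carcinomas. Much of this control acts on protein, which RNA levels do not measure.

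The sequences below carry the points to which the results return. In the files Yap1 had forms with and without a 48-base internal exon at chr9:7950492-7950539 of build mm9, minus strand, and the levels of both are given further on. With the exon in capitals and 30 bases on each side, the transcripts of GENCODE M21 read:
Yap1 with the exon: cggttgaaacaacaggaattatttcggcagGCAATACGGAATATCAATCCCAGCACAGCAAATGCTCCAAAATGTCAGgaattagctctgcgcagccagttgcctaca
Yap1 without the exon: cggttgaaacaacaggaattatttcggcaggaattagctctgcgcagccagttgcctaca

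TEAD factors recognise the letters CATTCC, known as the MCAT motif, which read GGAATG on the other strand. These letters were searched on both strands in the 250 bases before each gene's start in RefSeq (build GRCm38.p6). Of 32851 such windows in the genome, 12.6% held a match and 1.02% held at least 2. A window was on hand for 9 of the 10 genes, Tead1 being the exception, and 6 of the 9 held a match, while those of Lats1, Lats2 and Wwc1 did not. Ajuba and Ankrd1 each held 2. The windows of Ajuba, the 1 gene of the 10 that passed the test described further on, and of Ccn1, a standard YAP and TAZ target, are shown whole with the motif in capitals, each read 5′ to 3′ along the gene's strand:
Ajuba, chr14:54577662-54577911, minus strand: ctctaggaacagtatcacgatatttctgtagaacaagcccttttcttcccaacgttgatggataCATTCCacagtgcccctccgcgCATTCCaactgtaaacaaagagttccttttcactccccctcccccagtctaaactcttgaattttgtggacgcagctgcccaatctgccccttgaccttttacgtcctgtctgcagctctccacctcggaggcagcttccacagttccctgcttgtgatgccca
Ccn1, chr3:145649986-145650235, minus strand: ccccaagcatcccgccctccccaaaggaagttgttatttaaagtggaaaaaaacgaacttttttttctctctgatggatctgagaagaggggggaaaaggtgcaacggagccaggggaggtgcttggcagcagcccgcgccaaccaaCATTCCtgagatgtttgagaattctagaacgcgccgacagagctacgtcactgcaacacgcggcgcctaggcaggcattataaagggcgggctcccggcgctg

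In Ajuba the matches began 186 and 164 bases before the start, and in Ccn1 103 bases before it. For Ankrd1 and Amotl2, both used widely as YAP and TAZ targets, the stretch around each match is given:
Ankrd1, 210 bases before the start, chr19:36120039-36120064, minus strand: cactgccaaaGGAATGaccctctcac
Ankrd1, 123 bases before the start, chr19:36119952-36119977, minus strand: cactaagtctGGAATGaaaattcacc
Amotl2, 65 bases before the start, chr9:102717729-102717754, plus strand: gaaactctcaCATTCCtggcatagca
Single matches lay 141 bases before the start of Yap1, 170 before Wwtr1 and 182 before Tead3. A match describes the letters of the window and shows neither binding nor its absence.

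The libraries held 3.13 to 3.75 gigabases of aligned sequence. Of the summed FPKM of transcripts of at least 200 exonic bases, 87.1% to 89.8% lay on ones that could be named. The markers of the sort were present in both groups: Itga6 stood at 331 and 410 FPKM in reporter-negative and at 181 and 205 FPKM in reporter-positive libraries of experiments 1 and 2, and Cd44 at 81.5 and 112 against 88.0 and 81.3 FPKM. For Itga6 the adjusted p was 0.0565 (limma), or 0.019 once the experiment entered the fit as a block. Across all tested genes the deposited values put the median difference, reporter positive minus negative, at -0.18 on the log2(FPKM + 1) scale and median-of-ratios scaling at 0.03. Differences below are on that log2(FPKM + 1) scale, which understates the change of low genes, and a value close to -0.18 is close to the middle of all genes. Adjusted p-values are those of limma over all 11969 genes with a threshold of 0.05.

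In this comparison 1 of the 9 tested Hippo genes, Ajuba, passed the threshold, and it was lower in reporter-positive cells. Among all genes tested, 5.07% passed (607 genes), with 305 higher and 302 lower, and 2.52% passed as lower. The other 8 did not pass, with differences from -0.55 for Lats2 to 0.13 for Tead3. The median of the 9 differences was -0.28 with the deposited scaling and -0.04 with median-of-ratios scaling. Both reporter-positive libraries lay below both reporter-negative ones for 4 of the 9 genes, Wwtr1, Tead1, Lats2 and Ajuba, where 42.6% of all genes did so, and for none did they lie above (15.3% of all genes). In both experiments 5 of the 9 were lower in reporter-positive cells, beside 54.2% of all genes, and 1 was higher, beside 20.7%. The shares for the 9 genes thus sat near those of all genes.

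**Figure D1:**
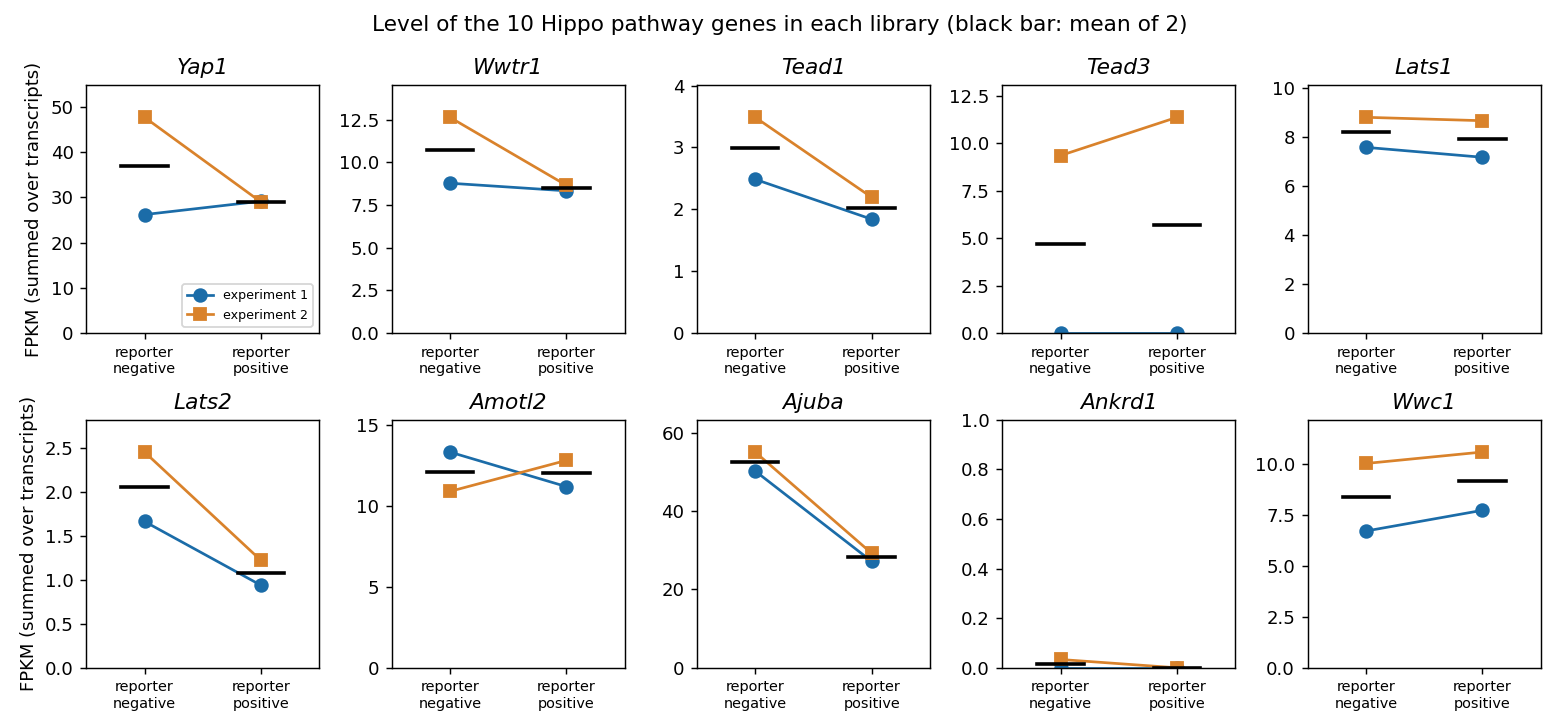
FPKM of each of the 10 genes in the 4 libraries, with a line joining the 2 fractions of an experiment and a black bar at the mean of each group. Ajuba fell in both experiments from 50.2 and 55.1 to 27.2 and 29.2 FPKM, Yap1 crossed between experiments, Tead3 is listed at 0 in both libraries of experiment 1, and Ankrd1 lies at or near 0 throughout.

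Set side by side per length, Ajuba and Yap1 were the most abundant of the 10 transcripts and Ankrd1 the least. In reporter-negative cells the order of group means was Ajuba (52.6 FPKM), Yap1 (36.9), Amotl2 (12.1), Wwtr1 (10.7), Wwc1 (8.36), Lats1 (8.19), Tead1 (2.99) and Lats2 (2.06). The 2 libraries of Amotl2, Wwtr1, Wwc1 and Lats1 spread over overlapping ranges between neighbours, so the order among them is not resolved. Nor is that of Tead1 and Lats2. When each form was weighted by its length, Tead1 stood at 1.46 and 2.13 and Lats2 at 1.66 and 2.45 in reporter-negative cells. In reporter-positive cells Yap1 (29.0 FPKM) and Ajuba (28.2) overlapped as well, and Wwc1 (9.14) stood above Wwtr1 (8.50) with overlapping ranges. Tead3 has no place in either order because it is listed at 0 in experiment 1.

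Among the transcriptional effectors, Yap1 (ENSMUSG00000053110, chr9:7931999-8004596 of mm9, minus strand) encodes YAP, the co-activator that the kinases of the pathway hold in check. It stood at 26.2 FPKM in reporter-negative and 29.1 FPKM in reporter-positive cells of experiment 1, and at 47.7 and 29.0 FPKM in those of experiment 2. The reporter-negative library of experiment 2 was high and the other 3 were close together, so the groups overlapped. Group means were 36.9 ± 15.2 and 29.0 ± 0.13 FPKM (SD, n = 2 each), and the difference of -0.28 ± 0.30 (SE) did not pass (limma, adjusted p = 0.608). Its sign was opposite in the 2 experiments, at 0.15 and -0.70.

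The 48-base exon of Yap1 shown above was carried by most of its transcripts in every library. Forms with it came to 16.0 and 33.5 FPKM in reporter-negative and to 18.7 and 20.0 FPKM in reporter-positive cells of experiments 1 and 2. Forms without it came to 10.1 and 14.2 FPKM in the former and 10.4 and 8.98 FPKM in the latter. The share with the exon was 61.3% and 70.3% in reporter-negative and 64.3% and 69.0% in reporter-positive cells. The reporter-positive shares fell between the reporter-negative ones, so no difference in the use of this exon was detectable between the fractions. In experiment 2, forms assembled from the reads gave 34.6% of Yap1 in reporter-negative and 31.0% in reporter-positive cells, and in experiment 1 they gave 0%.

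Wwtr1 (ENSMUSG00000027803, chr3:57259571-57379832, minus strand) encodes TAZ, the paralogue of YAP. It stood at 8.78 and 12.6 FPKM in reporter-negative and at 8.33 and 8.66 FPKM in reporter-positive cells of experiments 1 and 2. The reporter-positive libraries lay below both others, by a small margin in experiment 1. Means were 10.7 ± 2.73 and 8.50 ± 0.232 FPKM (SD, n = 2 each), and the difference of -0.28 ± 0.22 (SE) did not pass (limma, adjusted p = 0.474). The whole level came from a single Ensembl transcript in every library. Yap1 exceeded Wwtr1 by a ratio of 2.98 and 3.77 in reporter-negative and of 3.50 and 3.34 in reporter-positive libraries, so the ratio of the 2 co-activators overlapped between the fractions.

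The TEAD family was present through 4 members. Tead1 (ENSMUSG00000055320, chr7:119822832-120050321, plus strand) stood at 2.49 and 3.49 FPKM in reporter-negative and at 1.84 and 2.19 FPKM in reporter-positive cells. The reporter-positive libraries were the lower ones in each experiment, with differences of -0.30 and -0.49, and the groups did not overlap. Means were 2.99 ± 0.709 and 2.02 ± 0.251 FPKM (SD, n = 2 each), and the difference of -0.39 ± 0.23 (SE) did not pass (limma, adjusted p = 0.337). Between 54.4% and 66.3% of this level lay on a single-exon transcript of 3848 bases at the 3′ end of the gene, and the rest on forms assembled across it. When each form was weighted by its length, the groups nearly met. Tead1 then stood at 1.46 and 2.13 in reporter-negative and at 1.19 and 1.43 in reporter-positive cells. The difference was -0.26 (limma, adjusted p = 0.481).

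Tead3 (ENSMUSG00000002249, chr17:28468616-28487750, minus strand) is listed at 0 in both libraries of experiment 1. In experiment 2 it stood at 9.36 FPKM in reporter-negative and 11.4 FPKM in reporter-positive cells. The files mark at least 1 Tead3 transcript as fully covered by reads in 3 of the 4 libraries, including those of experiment 1, and in such tables a 0 can be a failed estimate. The difference of 0.13 ± 1.60 (SE) has an error set by those zeros (limma, adjusted p = 0.970). Leaving out single libraries moved it from -1.69 to 1.94, so the fractions could be compared for Tead3 in experiment 2 only, where the reporter-positive level was 121.5% of the other.

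The other 2 family members followed no shared direction. Tead2 stood at 0.719 and 1.01 FPKM in reporter-negative and at 0.285 and 0.468 FPKM in reporter-positive cells, under the filter. Tead4 stood at 2.80 and 5.35 FPKM in the former and at 6.07 and 7.80 FPKM in the latter, without overlap, and the difference of 0.68 ± 0.31 (SE) did not pass (limma, adjusted p = 0.250). Most of Tead4 lay on assembled forms whose lengths differed between libraries. When each form was weighted by its length, so that a short form counts no more than its fragments, the difference of Tead4 was -0.0058. By summed FPKM, Tead1 came to 0.889 and 0.652 of Tead4 in reporter-negative and to 0.303 and 0.282 in reporter-positive libraries, while the length-weighted ratios, 0.369 and 0.215 against 0.137 and 0.317, overlapped.

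Vgll4, a repressor that competes with YAP for TEAD factors, stood at 11.7 and 16.7 FPKM in reporter-negative and at 2.83 and 5.64 FPKM in reporter-positive cells. Both reporter-positive libraries were at 24.3% and 33.8% of their partners. The difference of -1.57 ± 0.34 (SE) did not pass (limma, adjusted p = 0.073). It passed with the experiment as a block (adjusted p = 0.0197), among only the genes above 0 in every library (0.0252) and with robust variance estimation (0.0398). It did not pass with median-of-ratios scaling (limma, adjusted p = 0.0879). All of its level lay on assembled forms. Weighted by length, the difference of Vgll4 was -1.28, which did not pass without blocks (limma, adjusted p = 0.105) and passed with them (0.013). Of the list of 10 effectors 7 were tested and none passed in the fit without blocks, Vgll4 was the 1 that passed when blocks were added to that fit, and Vgll1 and Vgll2 are listed at 0 in every library.

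**Figure D2:**
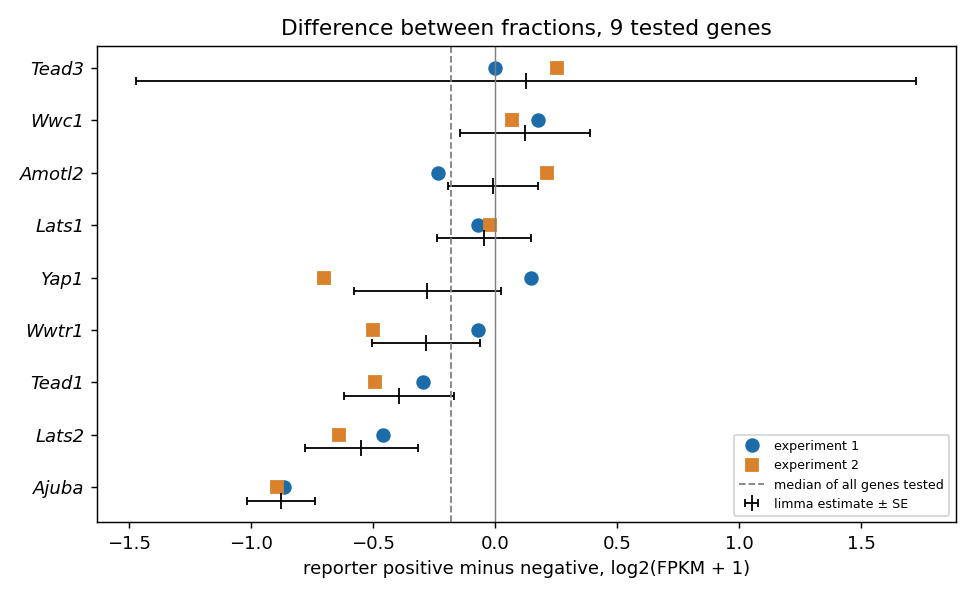
Difference between reporter-positive and reporter-negative cells on the log2(FPKM + 1) scale for the 9 tested genes, with circles and squares for the 2 experiments, a cross bar for the limma estimate ± SE and a dashed line at the median of all genes tested (-0.18). Ajuba lies farthest to the left at -0.88, Lats2 follows at -0.55, Lats1 and Amotl2 lie near 0 and turn positive with median-of-ratios scaling, and Tead3 has by far the widest error.

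Of the kinases, Lats1 (ENSMUSG00000040021, chr10:7401007-7436256, plus strand) differed little between the fractions. It stood at 7.58 and 8.80 FPKM in reporter-negative and at 7.17 and 8.67 FPKM in reporter-positive cells, with overlap, all on 1 Ensembl transcript. Its difference was -0.05 ± 0.19 (SE; limma, adjusted p = 0.908) and became 0.17 with median-of-ratios scaling.

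Lats2 (ENSMUSG00000021959, chr14:58308499-58377225, minus strand), its paralogue and itself a target gene of YAP and TAZ, stood at 1.66 and 2.45 FPKM in reporter-negative and at 0.939 and 1.22 FPKM in reporter-positive cells. The reporter-positive libraries were lower in both experiments, at 56.4% and 49.8% of their partners, and the groups did not overlap. Means were 2.06 ± 0.559 and 1.08 ± 0.200 FPKM (SD, n = 2 each), and the difference of -0.55 ± 0.23 (SE) did not pass (limma, adjusted p = 0.223, or 0.143 with the experiments as blocks). Low levels such as these are where the log2(FPKM + 1) scale understates a change most.

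The ratio of Lats1 to Lats2 within a library needs no scaling between libraries. It was 4.55 and 3.59 in reporter-negative and 7.64 and 7.09 in reporter-positive cells of experiments 1 and 2. The reporter-positive ratios were both above the others, and the 2 groups were apart by more than the spread within either. As Lats1 differed little, the ratio largely restates the difference of Lats2, which did not pass. The single transcript that carried the level of Lats2 was marked as fully covered by reads in no library. No test was made, since with 2 libraries per group the smallest p an exact permutation allows is 0.333.

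In the list of core kinases none of 18 tested genes passed, and the median difference was -0.07 (0.15 with median-of-ratios scaling). The list held 20 names, and Map4k6 among them is another name of Mink1, which was tested. Stk3 (Mst2) stood at 7.44 and 7.64 FPKM in reporter-negative and at 7.65 and 8.27 FPKM in reporter-positive cells, with an adjusted p of 0.834 (limma). Stk4 (Mst1) stood at 6.25 and 9.34 against 8.58 and 10.6 FPKM, with overlap. The adaptor Sav1, which joins the Mst kinases to Lats, stood at 23.6 and 23.3 against 16.8 and 20.3 FPKM and did not pass (limma, adjusted p = 0.271). The Lats cofactors Mob1a (35.4 and 53.5 against 34.6 and 43.4 FPKM) and Mob1b (8.07 and 10.8 against 9.32 and 10.6 FPKM) overlapped between the fractions. With the experiments as blocks 1 gene of the list passed, Map4k4, a kinase that can act on Lats in place of the Mst kinases, named after its values were seen. It stood at 26.3 and 35.1 FPKM in reporter-negative and at 51.5 and 64.3 FPKM in reporter-positive cells (limma with blocks, adjusted p = 0.0243; without, 0.0826, or 0.0431 with median-of-ratios scaling).

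Among the upstream scaffolds, Wwc1 (ENSMUSG00000018849, chr11:35651902-35794029, minus strand) encodes KIBRA, which works with merlin to activate the Lats kinases. It stood at 6.70 and 10.01 FPKM in reporter-negative and at 7.72 and 10.6 FPKM in reporter-positive cells. Both libraries of experiment 2 were above both of experiment 1, so the experiments separated and the fractions did not. The difference was 0.13 ± 0.27 (SE; limma, adjusted p = 0.809), and it was -0.07 when only Ensembl transcripts were counted.

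Amotl2 (ENSMUSG00000032531, chr9:102619002-102635748, plus strand) encodes an angiomotin-like scaffold that binds YAP and holds it outside the nucleus, and the gene is also a YAP target. It stood at 13.4 and 10.9 FPKM in reporter-negative and at 11.2 and 12.8 FPKM in reporter-positive cells. The experiments went in opposite directions, by -0.23 and 0.22, and the groups overlapped. The difference was -0.01 ± 0.18 (SE; limma, adjusted p = 0.982), and it turned to 0.21 with median-of-ratios scaling. Weighted by the length of each form, the 4 levels came together, at 9.89 and 9.91 in reporter-negative and 9.98 and 10.2 in reporter-positive cells.

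Of 13 tested scaffolds and activators in a list of 17, none passed in the fit without blocks or when blocks were added to it, and the median difference was -0.28 (-0.05 with median-of-ratios scaling). Nf2, which encodes merlin, stood at 23.4 and 34.3 FPKM in reporter-negative and at 23.5 and 23.0 FPKM in reporter-positive cells, with overlap. Frmd6, a partner of merlin, stood at 13.5 and 18.9 against 11.1 and 11.6 FPKM, and the groups did not overlap (limma, adjusted p = 0.249). Of the other angiomotins, Amotl1 overlapped, at 8.96 and 13.8 against 11.7 and 14.2 FPKM, and Amot lay under the filter at 0.170 and 0.254 against 0.0868 and 0.0629 FPKM. Ptpn14, a phosphatase that binds YAP and also counts among its targets, stood at 3.25 and 5.69 FPKM in reporter-negative and at 1.62 and 2.17 FPKM in reporter-positive cells (limma, adjusted p = 0.150).

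Ajuba (ENSMUSG00000022178, chr14:55186309-55196253, minus strand) encodes a LIM-domain protein of adherens junctions that binds Lats kinases and limits their action on YAP. It stood at 50.2 and 55.1 FPKM in reporter-negative and at 27.2 and 29.2 FPKM in reporter-positive cells of experiments 1 and 2. Both reporter-positive libraries were far below both others, at 54.1% and 53.1% of their partners. Means were 52.6 ± 3.43 and 28.2 ± 1.45 FPKM (SD, n = 2 each), and the difference was -0.88 ± 0.14 (SE; limma, adjusted p = 0.0414, or 0.025 with the experiments as blocks). The call was lost with median-of-ratios scaling (-0.64, adjusted p = 0.0626) and whenever a library was left out, with the lone library of a group taken to vary like the other group (-0.94 to -0.81, adjusted p = 0.0847 to 0.250).

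As the level was divided among forms, the fall of Ajuba lay on forms assembled from the reads and not on its single Ensembl transcript. That transcript, ENSMUST00000054487, stood at 18.5 and 26.4 FPKM in reporter-negative and at 27.2 and 22.3 FPKM in reporter-positive cells, with overlap, and taken alone it gave a difference of 0.15 (limma, adjusted p = 0.791). Assembled forms gave 63.2% and 52.1% of the gene in reporter-negative cells, and 0% and 23.6% in reporter-positive cells. In each reporter-negative library 1 assembled form of nearly the full length (3377 and 3358 bases, against 3255 for the Ensembl transcript) reached beyond the annotated start, and a second of 1835 bases, within the 3′ part of the gene, was assembled in experiment 1. The forms overlap on 1 strand, and forms were assembled separately in each library. How fragments from shared bases were divided among forms can therefore differ between libraries, so these values cannot show which form fell. Weighted by length, Ajuba stood at 42.6 and 56.0 in reporter-negative and at 27.2 and 26.6 in reporter-positive cells, again without overlap, with a difference of -0.84 (limma, adjusted p = 0.0647, or 0.0273 with blocks). With such levels none of the 10 genes passed without blocks, where 2.69% of all genes passed as lower, and Ajuba passed with them, where 9.44% did.

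**Figure D3:**
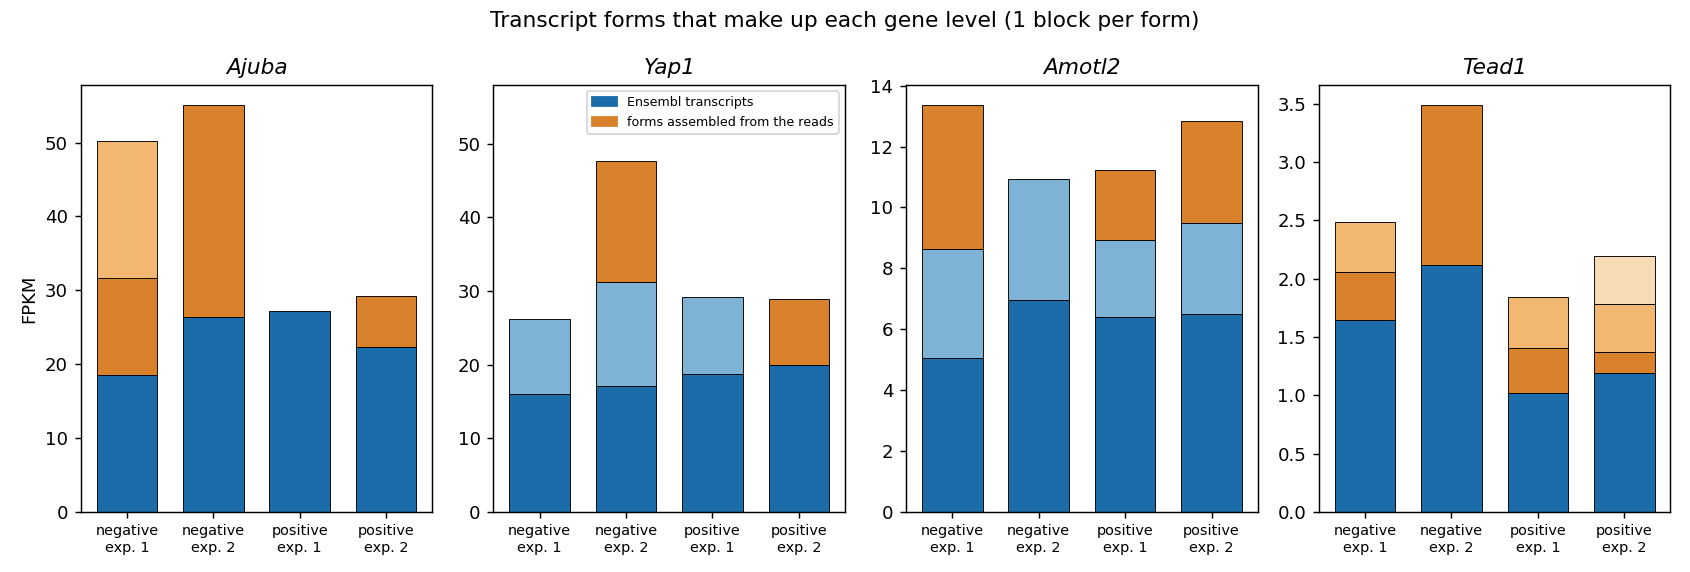
FPKM of each transcript form of Ajuba, Yap1, Amotl2 and Tead1 in the 4 libraries, stacked to the level of the gene, with Ensembl transcripts in blue and forms assembled from the reads in orange. The blue block of Ajuba lies between 18.5 and 27.2 FPKM in all 4 libraries, and the orange blocks are large in the reporter-negative ones, small in reporter-positive experiment 2 and missing in reporter-positive experiment 1.

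The list of LATS inhibitors, to which Ajuba belongs, held 17 genes. Of the 15 tested, Ajuba alone passed, both in the fit without blocks and with blocks added to it. The median difference of the list was close to 0 with the deposited scaling and 0.22 with median-of-ratios scaling, beside -0.18 and 0.03 for all genes.

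Among targets of YAP and TAZ, Ankrd1 (ENSMUSG00000024803, chr19:36186455-36194334, minus strand), a standard readout of YAP activity in many cell lines, is listed at or near 0. It stands at 0.0334 FPKM in the reporter-negative library of experiment 2 and at 0 in the other 3. No transcript of it was marked as fully covered by reads, and with these values the fractions cannot be compared for Ankrd1. Its window held the 2 motif matches shown above, and whether they bear on its level was not tested.

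The wider list of 25 targets, which holds Ankrd1, Ajuba, Amotl2 and Lats2, leaned to lower levels in reporter-positive cells. Of 22 tested genes 3 passed, all lower: Ajuba, Ccdc80 and Ccn2. Ccdc80 and Ccn2 met the filter of 1 FPKM through the reporter-negative libraries only, so they could pass only as lower. With a minimum of 5 FPKM 1 gene of the list passed, as lower. The median difference was -0.50 (-0.34 with median-of-ratios scaling), beside -0.18 (0.03) for all genes. Both reporter-positive libraries lay below both others for 16 of the 22 genes, where 42.6% of all genes did so, and above them for 3, where 15.3% did. With the experiments as blocks 6 passed, 5 lower and 1 higher, beside 6.36% and 4.09% of all genes. The additions, named after their values were seen, were Crim1 and Igfbp3 on the lower side and the kinase gene Nuak2 on the higher side.

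Ccn2 (ENSMUSG00000019997, chr10:24315248-24318489, plus strand), a matricellular protein and one of the best known YAP and TAZ targets, stood at 3.90 and 5.24 FPKM in reporter-negative and at 0.451 and 0.919 FPKM in reporter-positive cells. The reporter-positive levels were 11.6% and 17.5% of their partners, without overlap. The difference was -1.73 ± 0.25 (SE; limma, adjusted p = 0.0363). Ccdc80 (ENSMUSG00000022665, chr16:45093515-45128037, plus strand), an extracellular matrix protein, fell as well, from 2.60 and 3.50 FPKM to 0.169 and 0.384 FPKM, with a difference of -1.66 ± 0.23 (SE; limma, adjusted p = 0.0333). Both genes passed with median-of-ratios scaling and with length-weighted levels, and both lost the call whenever a library was left out (adjusted p = 0.071 to 0.186), with a pseudocount of 0.1, with no filter and with reference transcripts only. With reference transcripts only the adjusted p was 0.0771 for Ccn2 and 0.160 for Ccdc80 (limma), and Ccdc80 was also lost with the most abundant transcript, at -0.79 (adjusted p = 0.137).

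Ccn1, the relative of Ccn2 whose promoter is shown above, stood at 16.0 and 15.2 FPKM in reporter-negative and at 10.5 and 9.14 FPKM in reporter-positive cells. The groups did not overlap, and the reporter-positive levels were 65.8% and 60.1% of the others. The difference of -0.62 ± 0.16 (SE) did not pass (limma, adjusted p = 0.105). Axl, a receptor tyrosine kinase, stood at 11.1 and 18.5 against 7.21 and 9.10 FPKM, also without overlap, and its difference of -0.76 ± 0.29 (SE) did not pass (limma, adjusted p = 0.188).

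**Figure D4:**
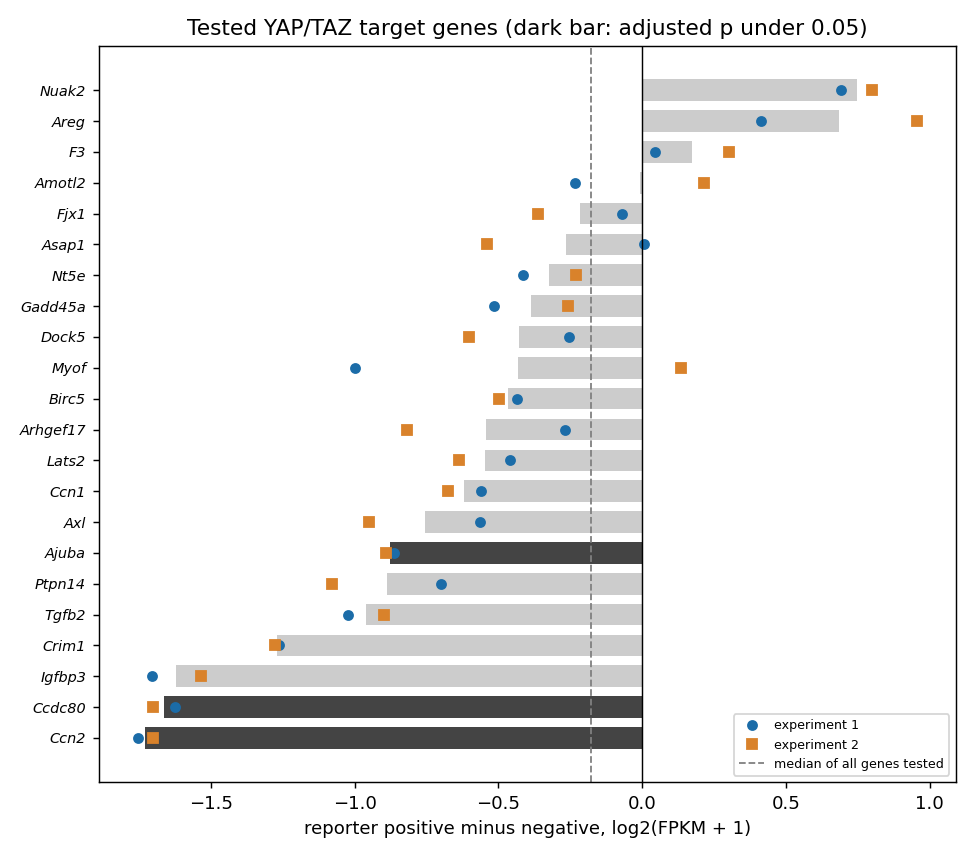
Difference between reporter-positive and reporter-negative cells on the log2(FPKM + 1) scale for the 22 tested YAP and TAZ targets, with bars for the limma estimate (dark where the adjusted p was under 0.05), circles and squares for the 2 experiments and a dashed line at the median of all genes tested. Ccn2, Ccdc80 and Ajuba carry the dark bars, 19 estimates lie below 0 and 3 above, and Amotl2, close to 0, turns positive with median-of-ratios scaling.

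Some markers of other cells and states differed between the same libraries, and their part in the results was not tested. Fewer cells of a type and less RNA per cell cannot be told apart in such pools of cells. The 10 fibroblast markers summed to 134.7 and 269.8 FPKM in reporter-negative and to 18.9 and 42.4 FPKM in reporter-positive cells; 2 of 8 tested passed, both lower, and none was at 0 in every library. The 7 endothelial markers summed to 12.6 and 12.8 against 3.01 and 3.38 FPKM (0 of 2 tested passed), with both tested ones lower in each experiment. The 8 leukocyte markers summed to 31.1 and 48.8 against 15.3 and 30.7 FPKM, but of the 3 tested none passed, 2 were higher and 1 lower in both experiments, and their median difference was 0.34. Of 7 muscle markers only Acta2 was tested, and it was lower; the measured ones summed to 26.8 and 23.7 against 11.5 and 11.4 FPKM, with Tagln listed at 0 throughout. Markers of keratinocyte differentiation went the other way: 7 of 11 tested passed, all higher, and their sum was 1709 and 1410 FPKM in reporter-negative and 7918 and 7699 FPKM in reporter-positive cells. Keratinocyte identity markers summed to 2547 and 2671 against 3694 and 3880 FPKM, with Krt5 and Krt14 not analysed here. That sum and the members differed in direction: 0 of 7 tested passed, the median difference was -0.64, and 4 were lower and 3 higher in both experiments. Of 8 cell cycle markers, 1 of which (Birc5) is also in the target list, 3 passed, all lower, and the sum was 571 and 605 against 425 and 362 FPKM.

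Over all 5 pathway lists, 85 gene names with 71 genes tested, 3 genes passed, 0 higher and 3 lower, beside 2.55% and 2.52% of all genes. The split was 2 higher and 2 lower with median-of-ratios scaling, where it was 455 and 202 over all genes. With the experiments as blocks 8 passed, 2 higher and 6 lower, beside 4.09% and 6.36% of all genes. All 3 that passed without blocks were listed as targets, and Ajuba was listed as a LATS inhibitor as well. Of these, Ccdc80 and Ccn2 met the filter through reporter-negative libraries only and could pass only as lower. In that fit none of 7 tested effectors, 18 core kinases and 13 scaffolds passed, beside 5.07% of all genes.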

How the data were processed

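Libraries of messenger RNA from the sorted cells were prepared with an Illumina kit, as the labels' protocols state. The submitters' processing notes name TopHat, Cufflinks and build mm9 as what the authors used, and versions were not among the sources used here. The deposited tables give an FPKM value, its interval and coverage for each transcript, Ensembl and assembled, per the file headers. The FPKM values sit in the attribute text of each line and are normalized to library depth and transcript length, and were tested on a log scale rather than as counts.

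Genes were rebuilt with Python 3.11.15 and pandas 2.3.3. GENCODE M21, which describes another build and gave names only, matched 84047 of 96734 reference transcripts by their identifier, and the gene identifier in the files matched 5138. Others, assembled forms included, went to the gene that held at least 50% of their length in exons of the same strand. Those placed in this way carried 11.8% to 13.3% of the FPKM of forms of at least 200 bases. Forms under 200 bases, with 95.1% to 98.9% of all FPKM, were left out. Depth was recovered as coverage over FPKM. Among tested genes 473 are listed at 0 in at least 1 library.

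Tests used limma 3.58.1 (R 4.3.3; lmFit and trended eBayes) on log2(FPKM + 1), two-sided, with Benjamini-Hochberg adjustment over all genes tested, and were tested on simulated data. The titles number the experiment, which pairs the libraries. Across 11969 genes the deviations of same-experiment libraries from their group means had a Pearson's r of 0.174 and a Spearman's rho of 0.377. Alternatives were blocks, scaling, pseudocount, filters, variance estimation, choice of transcripts and leaving out libraries. Length-weighted levels (FPKM times length summed over forms, divided by the longest annotated length) were chosen after the data were seen.

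The Hippo genes and all lists were chosen with earlier results of these data known. Named were the 10 genes, every other gene of the pathway lists past the threshold, and whatever their values Stk3, Stk4, Sav1, Mob1a, Mob1b, Nf2, Tead2, Tead4, Vgll4, Frmd6, Amot, Amotl1, Ptpn14, Ccn1, Ccn2, Axl, Itga6 and Cd44. Marker lists are given as counts and sums.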

Additional observations from a re-analysis of the deposited data

How the results depend on the processing

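The counts of genes past the threshold depended on the settings. Over all genes 607 passed, against 1250 with the replicate block, 1209 with only genes above 0 in every library, 3144 with both, 973 with robust variance estimation, 312 with the most abundant transcript, 71 with reference transcripts only and 4 with no filter. Length-weighted levels, added after the data were seen, gave 1732 with the replicate block. Leaving out 1 library gave 3 to 179: of the reporter-negative pair, 179 passed without replicate 1 and 3 without replicate 2, and of the reporter-positive pair, 74 and 45. The split of 305 higher and 302 lower became 455 and 202 with median-of-ratios scaling and 407 and 252 with quantile normalization.

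Of the 10 Hippo genes 1 passed, and 0 did with median-of-ratios scaling, no filter, reference transcripts only, the most abundant transcript or length-weighted levels, and 0 to 0 without single libraries. In the pathway lists 3 of 71 tested genes passed, where 607 of 11969 did over all genes. The count was 8 with the replicate block (1250 over all genes), 9 above 0 in every library (1209) and 21 with both (3144). Robust estimation gave 6 (973), and length-weighted levels with the replicate block gave 12 (1732). It was 1 with a pseudocount of 0.1 (463), a minimum of 5 FPKM (611) or the most abundant transcript (312). No filter (4) and reference transcripts only (71) gave 0. The pathway counts thus rose under settings where the count over all genes rose as well. With summed FPKM the replicate block changed no call of the 10 genes. With length-weighted levels Ajuba passed once the block was added (limma, adjusted p = 0.0273, against 0.0647 without it). The causes of these shifts were not tested.

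The sign of the difference turned under at least 1 setting for the genes given here. With the most abundant transcript the differences were 0.21 for Yap1, 0.10 for Amotl2, 0.092 for Ajuba, -0.070 for Wwc1 and 0.26 for Nf2, and with reference transcripts only 0.15 for Ajuba, -0.070 for Wwc1 and 0.45 for Cd44. With median-of-ratios scaling they were 0.17 for Lats1, 0.21 for Amotl2, 0.068 for Mob1a and 0.060 for Cd44, and with quantile normalization 0.16 for Lats1 and 0.18 for Amotl2. Length-weighted levels, with and without the replicate block, gave 0.026 for Amotl2 and -0.0058 for Tead4. Without single libraries the ranges that crossed 0 were -0.70 to 0.14 for Yap1, -1.69 to 1.94 for Tead3, -0.17 to 0.076 for Lats1, -0.14 to 0.13 for Amotl2, -0.13 to 0.38 for Wwc1, -0.46 to 0.13 for Mob1a, -0.11 to 0.27 for Mob1b, -0.091 to 0.48 for Amotl1 and -0.40 to 0.053 for Cd44. How many reads stand behind each FPKM is unknown, because read length was not stated.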
